A study of Rattus norvegicus with 9 samples.

Results

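The genes described here encode the proteasome, its activators, its inhibitor and its assembly chaperones. They were taken from the array annotation by symbol: every transcript cluster, the array's unit of measurement for a gene, whose single symbol began with Psma, Psmb, Psmc, Psmd, Psme, Psmf or Psmg followed by a number. The rule found 43 genes in 44 of 36685 clusters, because Psmb6 had 2 clusters, and the cluster of highest mean level stood for each gene. Of the 43 genes, 3 (Psmb8, Psmb9 and Psmb10) encode the inducible catalytic subunits of the immunoproteasome. The other 40 are called constitutive here, although this group also holds the thymus-restricted subunit Psmb11 and the interferon-inducible activator genes Psme1 and Psme2. Psma3 and Psme3 lay only in clusters annotated with several symbols, and Psma8, Psmd10 and Psmg3 were not matched to a cluster, so these 5 genes were not analysed here.

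Retinal ganglion cells, the neurons that send the retina's output to the brain, were purified by immunopanning from Sprague Dawley rats aged 4 days after birth. All were electroporated with pMAX-GFP, and with it either mCherry (the control), wild-type Set-β (wt-SetB) or myr-Set-β (myr-SetB), and the comparisons ask which transcripts differ between these constructs. GFP-positive cells were sorted on the following day, so the sort selected for the shared marker plasmid and not for the Set-β construct. RNA was taken 3 days after transfection, amplified and hybridised to Rat Gene 2.0 ST arrays, 3 arrays per group and 9 in all. The labels call the samples biological replicates without saying whether they came from separate litters or were pooled, so a p-value here reflects array-to-array spread that may be partly technical. The labels do not name the promoter that drives each construct, and the level of the transfected Set gene was not analysed here.

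The proteasome degrades proteins that carry ubiquitin chains. Its barrel-shaped core is built from outer rings of alpha subunits, which gate the entrance, and inner rings of beta subunits, of which Psmb6, Psmb7 and Psmb5 carry the caspase-like, trypsin-like and chymotrypsin-like active sites. A regulatory particle caps the core: its Psmc ATPases unfold substrates and thread them inward, and its non-ATPase Psmd subunits bind and remove ubiquitin. Interferon-γ induces Psmb9, Psmb10 and Psmb8, which replace Psmb6, Psmb7 and Psmb5 in newly assembled particles and alter the peptides made. In neurons the constitutive form is abundant, and subunit genes are induced together by the transcription factor Nfe2l1 when proteasome activity falls short.

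Promoters were examined because the constitutive and inducible subunits are known to have different regulators. RefSeq promoter windows of the GRCr8 assembly, from 250 bases before to 50 bases after the start site, were matched for 38 of the 43 genes, while Psma7, Psmb11, Psmd6, Psmd12 and Psmd14 had no entry. The core of the antioxidant response element, bound by Nfe2l1 and its relative Nfe2l2, was searched on both strands as TGACNNNGC. It occurred in 7 of 38 windows (18.4%), those of Psmb2, Psmb5, Psmb6, Psmd1, Psmd3, Psmd9 and Psme4, and in 12.1% of all 33469 windows. The core of the interferon-stimulated response element, searched on both strands as GAAA, any 2 bases and GAAA, also occurred in 7 of 38 windows (18.4%), those of Psma4, Psmb3, Psmb8, Psmb10, Psmd7, Psme2 and Psmg4, and in 3.92% of all windows. No member's window held both. The 150 bases directly before the start site are given below for a pair of constitutive catalytic subunits with the first motif and for an inducible catalytic subunit and an activator subunit with the second. Each is written 5′ to 3′ on the strand of its gene, and capitals mark the matches: Psmb5 at chr15:32047380-32047529 (minus strand), Psmb6 at chr10:55737738-55737887 (plus strand), Psmb10 at chr19:50743293-50743442 (minus strand) and Psme2 at chr15:33052752-33052901 (minus strand).
Psmb5: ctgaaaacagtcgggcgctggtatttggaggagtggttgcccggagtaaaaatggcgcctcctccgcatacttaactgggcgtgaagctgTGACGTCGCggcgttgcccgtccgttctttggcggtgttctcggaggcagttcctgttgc
Psmb6: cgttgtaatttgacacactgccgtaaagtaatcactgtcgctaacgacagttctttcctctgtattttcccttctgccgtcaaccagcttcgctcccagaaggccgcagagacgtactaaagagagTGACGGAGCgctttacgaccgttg
Psmb10: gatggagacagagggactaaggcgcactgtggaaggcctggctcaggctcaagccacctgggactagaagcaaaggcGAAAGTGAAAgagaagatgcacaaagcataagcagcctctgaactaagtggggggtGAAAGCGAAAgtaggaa
Psme2: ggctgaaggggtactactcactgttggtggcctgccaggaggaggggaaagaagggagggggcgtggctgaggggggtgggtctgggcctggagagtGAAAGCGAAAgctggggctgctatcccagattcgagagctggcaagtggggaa
The match began 60 bases before the start site in Psmb5, 24 bases before it in Psmb6 and 53 bases before it in Psme2, and Psmb10 had 2 matches, at 73 and 17 bases. These are matches of letters, and binding was not measured. Psmb9 lies head to head with Tap1, the gene of a peptide transporter subunit, on chromosome 20, and their windows overlapped by 44 bases. The interferon element core was not found in the Psmb9 window and occurred 1 time in that of Tap1.

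The deposited values were intensities scaled to the same median on every array, and all levels below are log2 intensities. Differences were tested with limma over the 18343 clusters whose mean level reached 6.65, which kept 42 of the 43 genes, all except Psmb8. No cluster on the array passed an adjusted p of 0.05 by limma in any comparison, and 1865, 1796 and 208 clusters had an unadjusted p under 0.05 for wt-SetB against mCherry, myr-SetB against mCherry and myr-SetB against wt-SetB. The arrays differed in their spread of signal: the span between the outer deciles of all clusters was 4.29 to 4.54 on the mCherry arrays, 4.12 to 4.21 on the wt-SetB arrays and 3.82 to 4.46 on the myr-SetB arrays, lowest on myr-SetB replicate 1. The 9172 clusters of highest mean level had a median difference of -0.36 in each comparison with mCherry. Quantile normalization, which gives every array the same distribution, put these clusters at -0.08 and -0.12, and cyclic loess normalization put them at -0.07 and -0.04. Most proteasome genes lie at high levels, so group counts below are read against all clusters and against these other scalings. Ganglion cell markers were measured for 14 of 15 genes and none was below the median level of odorant receptor genes, taken as a mark of low signal, on any array. All 14 were lower with each construct as deposited (medians -0.53 and -0.55), but cyclic loess left 13 and 10 of them lower and quantile normalization 13 and 14. Their summed intensity ranged from 11613 to 20103 on mCherry arrays, 7536 to 13142 on wt-SetB arrays and 7881 to 14176 on myr-SetB arrays. Markers of microglia and macrophages, immune cells in which immunoproteasome genes are typically active, summed to 1810 to 2577, 1870 to 2844 and 1902 to 2644 over 14 of 14 genes. The lowest sum of each group was that of replicate 1, and the other arrays lay between 2246 and 2844. Of the 11 of these marker genes that were tested, 3 were lower with each construct as deposited (medians 0.11 and 0.04). After either rescaling 1 of the 11 was lower with each construct. The medians were then 0.31 and 0.15 (quantile) and 0.30 and 0.32 (cyclic loess), beside all-cluster medians of -0.03 to -0.01. Cx3cr1 (0.73 and 0.68) and C1qa (0.62 and 0.66) were the 2 at an unadjusted p under 0.05 by limma as deposited. Trem2 (0.30 and 0.19) and Cd74 (0.25 and 0.34) were also higher, but not at that level. C1qb (0.04 and 0.10), Aif1 (-0.02 and 0.04), Csf1r (0.11 and 0.03) and Laptm5 (-0.04 and -0.04) lay near the controls. Lyz2 lay below them (-0.52 and -1.48). Müller glia and astrocyte markers (6 of 7 measured) summed to 583 to 823 on replicate 1 of each group and to 2692 to 4859 on the other arrays. Within this list that split lies in Vim, an intermediate filament gene also expressed outside glia, whose SD within groups was 1.90 to 2.12. The glial genes Rlbp1, Slc1a3, Gfap, Aqp4 and S100b had SDs of 0.29 or less. Endothelial, mural and fibroblast markers (7 of 10 measured) summed to 638 to 757 on replicate 1 of each group and to 1045 to 1621 on the other arrays. Among them Pdgfrb had SDs within groups of 0.78 to 1.26 and Col3a1 of 0.92 to 1.02, and the others of 0.61 or less. The part of these cell markers in the results below was not tested.

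With wt-SetB, the constitutive proteasome genes were lower than with mCherry as a group of values, by a median log2 difference of -0.56, or 0.68 times the mCherry level, but no gene passed the adjusted test. The difference was below 0 for 39 of 40 constitutive genes, where it was below 0 for 65.5% of all tested clusters, whose median was -0.18, and for 73.8% of the 9172 clusters of highest mean level. In 28 of the 40 the 3 wt-SetB arrays all lay under the 3 mCherry arrays, where 26.4% of all tested clusters did. None of the 40 lay wholly above the controls, where 7.31% of clusters did. In bulk RNA, fewer cells of a type and less RNA per cell cannot be told apart. An unadjusted p under 0.05 was reached by 4 of 42 tested genes, Psmb5, Psmd14, Psmg2 and Psmd7, all lower, where 7.13% of all tested clusters reached it in that direction and 3.04% in the other. The smallest adjusted p of any member was 0.447 (limma, Benjamini-Hochberg).

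**Figure D1:**
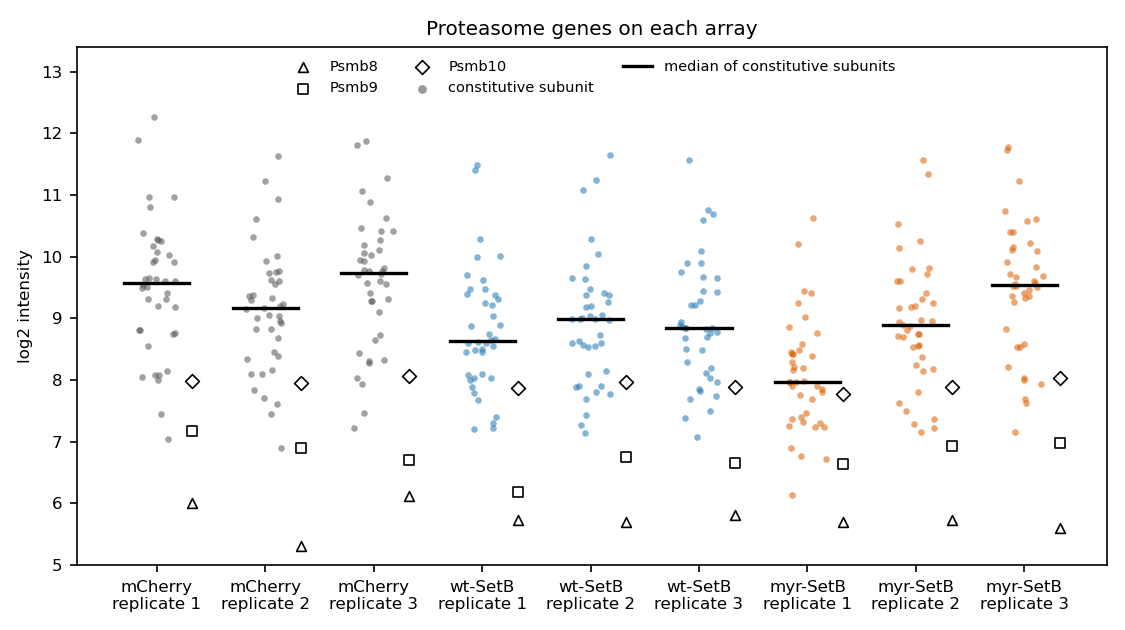
Log2 intensity (y axis) of the 40 constitutive proteasome genes (points, coloured by group) on each of the 9 arrays (x axis), with a line at their median and separate symbols for Psmb8, Psmb9 and Psmb10. The constitutive medians were 9.16 to 9.74 on mCherry arrays and 8.63 to 8.99 on wt-SetB arrays, and they spread from 7.97 on myr-SetB replicate 1 to 9.54 on myr-SetB replicate 3.

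Alpha ring genes were lower with wt-SetB in 6 of 6 cases under all 3 scalings, with a median difference of -0.65, and the arrays did not overlap in 4 of them, but in 2 after either rescaling (background 26.4%, then 11.7% and 12.1%). Psma7, the alpha gene of highest mean level, read 12.26, 11.23 and 11.81 on the mCherry arrays, 11.49, 11.07 and 10.75 on the wt-SetB arrays and 10.21, 11.34 and 11.73 on the myr-SetB arrays. The wt-SetB arrays reached into the mCherry range through replicate 1, and the difference was -0.66 ± 0.42 (SE, n = 3 per group). Psma5, another ring subunit, read 10.98, 10.62 and 11.06 with mCherry against 9.99, 10.05 and 10.59 with wt-SetB, which do not overlap, although the highest wt-SetB array came within reach of the lowest control. Its difference was -0.67 ± 0.33.

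Among the 7 constitutive beta subunits other than Psmb11, all 7 differences were below 0 as deposited and 4 of 7 after either rescaling, with a deposited median of -0.49. Psmb5, the chymotrypsin-like subunit and the main target of proteasome inhibitor drugs, read 9.40, 9.33 and 9.71 on the mCherry arrays and 8.49, 8.60 and 8.86 on the wt-SetB arrays. All 3 wt-SetB arrays lay under all 3 controls, and the difference was -0.83 ± 0.29 (unadjusted p = 0.0192, adjusted p = 0.447, limma). Psmb6, the caspase-like subunit, read 10.28, 9.75 and 10.47 with mCherry and 9.48, 9.64 and 9.43 with wt-SetB. These too do not overlap, and the difference was -0.65 ± 0.39 (adjusted p = 0.451, limma). The second Psmb6 cluster gave -0.78 ± 0.41. Psmb7, the trypsin-like subunit, read 10.81, 10.32 and 10.89 with mCherry but 10.02, 11.24 and 10.09 with wt-SetB. Here wt-SetB replicate 2 was the highest of all 9 arrays, the groups overlapped, and the difference was -0.23 ± 0.45 (adjusted p = 0.775, limma). Psmb4, a non-catalytic beta subunit and the one of highest mean level, had a difference of -0.26 ± 0.28, and Psmb3, also non-catalytic, had -0.16 ± 0.16. The sign for Psmb7, Psmb4 and Psmb3 depended on the scaling: quantile normalization gave 0.11 for Psmb7 and 0.03 for Psmb4, cyclic loess gave 0.13 and 0.07, and Psmb3 had 0.10 and 0.11. Psmb11, the thymus-restricted subunit, read between 7.04 and 7.61 on all 9 arrays and was the only constitutive gene with a difference above 0 as deposited, of 0.10 ± 0.18.

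All 17 of the regulatory particle's ATPase and non-ATPase subunits were lower with wt-SetB, with a median of -0.67, and all 17 were lower under both other scalings too. Psmd14, the metalloprotease that cuts ubiquitin chains from substrates, read 10.07, 9.30 and 10.05 on the mCherry arrays and 8.90, 9.06 and 8.29 on the wt-SetB arrays. The groups did not overlap, and the difference of -1.06 ± 0.38 was the lowest of any member (unadjusted p = 0.0221, adjusted p = 0.447, limma). Psmd7, the partner with which Psmd14 forms a dimer, read 9.61, 9.01 and 9.58 against 8.55, 8.56 and 8.70, again without overlap. Its difference was -0.79 ± 0.33 (unadjusted p = 0.0386, adjusted p = 0.447, limma). Over the 11 non-ATPase subunits the median was -0.68, and the arrays did not overlap in 10 as deposited and in 6 after either rescaling. The 6 ATPases had a median of -0.53, and the arrays did not overlap in 4 as deposited and in 1 after either rescaling. Among all tested clusters 26.4% were lower without overlap as deposited, 11.7% after quantile normalization and 12.1% under cyclic loess. Psmd12, a lid subunit and the non-ATPase of highest mean level, had -0.67 ± 0.36, and Psmc4, the ATPase of highest mean level, had -0.45 ± 0.43.

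Among the genes that assemble or modulate the particle, Psmg1 and Psmg2 form a dimer that guides assembly of the alpha ring, and they differed in how the arrays separated. Psmg2 read 8.08, 8.39 and 8.73 with mCherry and 7.88, 7.89 and 7.74 with wt-SetB. These do not overlap, and the difference was -0.56 ± 0.23 (unadjusted p = 0.0361, adjusted p = 0.447, limma). Psmg1 read 9.20, 8.92 and 9.41 against 8.61, 9.04 and 8.85, which overlap, with a difference of -0.34 ± 0.39. Psmg4, which works in a separate chaperone pair, had -0.16 ± 0.21, but 0.19 under cyclic loess and above 0 under quantile normalization too. The chaperones of the regulatory particle, Psmd5 and Psmd9, had -0.16 ± 0.20 and -0.13 ± 0.26. The scaling turned Psmg1 and Psmd5 above 0, to 0.016 and 0.07 after quantile normalization. All 3 activator genes were lower without overlap as deposited, and with overlap after either rescaling. Among all tested clusters 26.4% were lower without overlap as deposited, 11.7% after quantile normalization and 12.1% under cyclic loess. Psme2, a subunit of the interferon-inducible activator ring, read 10.25, 9.73 and 10.42 with mCherry and 9.71, 9.66 and 9.65 with wt-SetB. Its difference was -0.46 ± 0.23, that of its partner Psme1 -0.43 ± 0.28, and that of Psme4, the gene of a large single-chain activator, -0.40 ± 0.38. Psmf1, named as an inhibitor of the core, read 8.81, 8.16 and 8.31 against 8.0, 7.70 and 8.12. The arrays did not overlap, though by a small margin, and the difference was -0.49 ± 0.34.

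**Figure D2:**
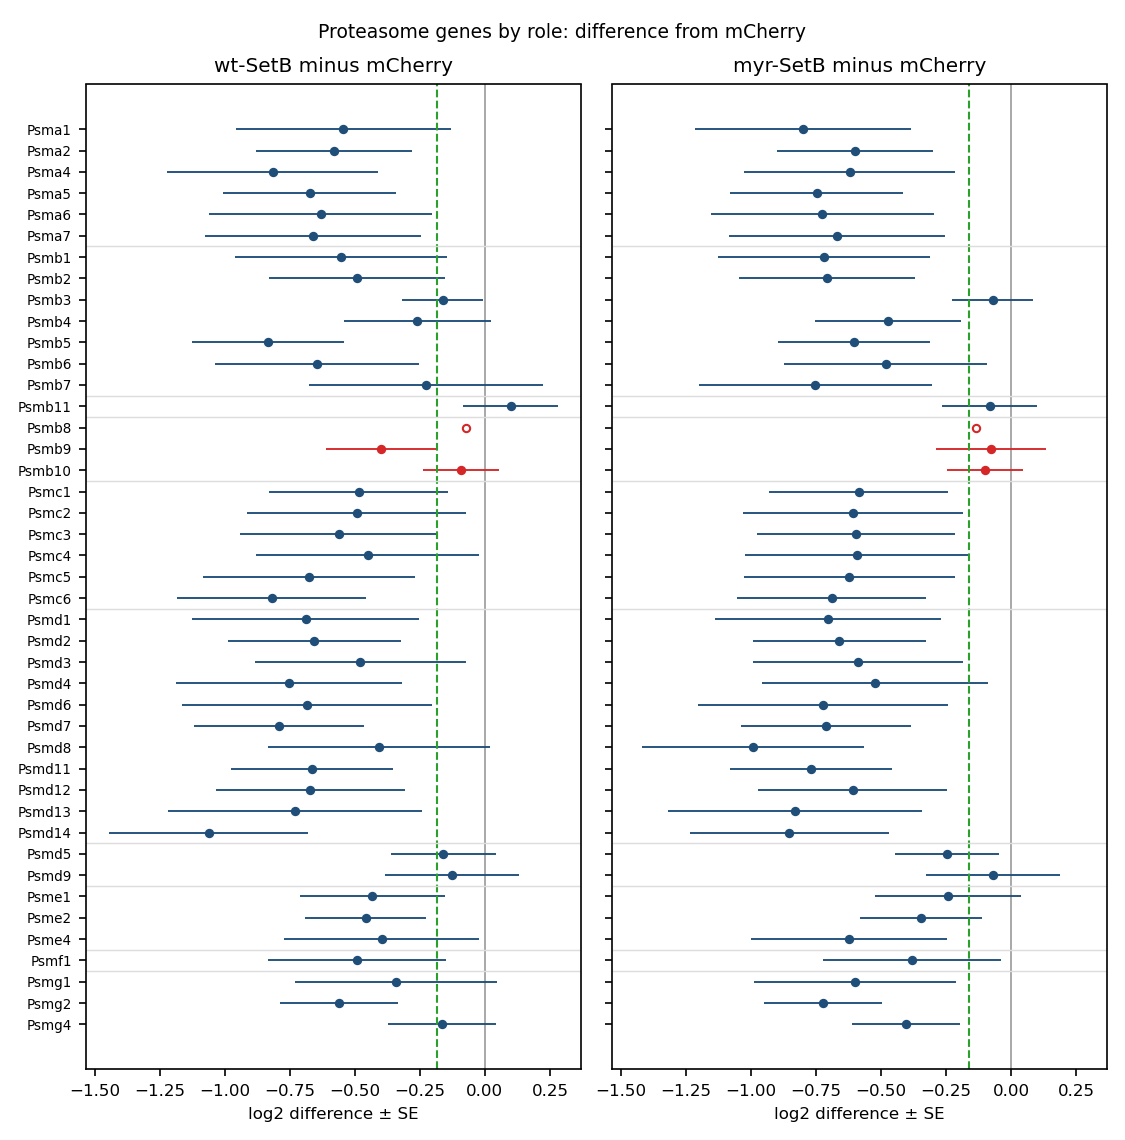
Log2 difference (x axis; bars, SE from limma) of each of the 43 genes, ordered by role (y axis), for wt-SetB minus mCherry and myr-SetB minus mCherry; immunoproteasome genes are red, Psmb8 (open, no SE) was below the level filter, and the dashed line is the median over all tested clusters, at -0.18 and -0.16. In both comparisons the core and regulatory particle genes lie mostly to the left of that line, and the chaperones Psmd5 and Psmd9 lie close to it.

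Scaling reduced the size of the wt-SetB difference but left most genes below 0. After quantile normalization the constitutive median was -0.21, with 33 of 40 genes below 0. Of all tested clusters 53.5% were below 0, and of the 9172 clusters of highest mean level 58.2%. Under cyclic loess the median was -0.21 again, with 33 of 40 below 0, where 53.1% of all tested clusters and 56.8% of those 9172 were. The 28 genes without overlap became 10 under each scaling, where 11.7% of clusters were lower without overlap after quantile normalization and 12.1% after cyclic loess. The count at an unadjusted p under 0.05, 4 as deposited, was 2 after quantile normalization and 3 after cyclic loess. That count also moved with every array left out: it was 2 without mCherry replicate 1, 6 without mCherry replicate 2, 0 without mCherry replicate 3, 1 without wt-SetB replicate 1, 2 without wt-SetB replicate 2 or 3, 18 without myr-SetB replicate 1, 2 without myr-SetB replicate 2 and 14 without myr-SetB replicate 3. Over all tested clusters the share at that level, in either direction, moved too. It was 10.2% as deposited, 7.46% after quantile normalization and 9.26% after cyclic loess. Without mCherry replicates 1 to 3 it was 4.8%, 15.2% and 5.41%. Without wt-SetB replicates 1 to 3 it was 7.16%, 5.74% and 4.98%, and without myr-SetB replicates 1 to 3 it was 21.1%, 7.23% and 17.6%. The myr-SetB arrays enter this comparison only through the shared estimate of the spread. The constitutive median itself lay between -0.70 and -0.44 in those fits.

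With myr-SetB the constitutive genes also had values below the mCherry mean, by a median of -0.61, or 0.65 times the mCherry level, and again none passed the adjusted test. The comparison uses the same mCherry arrays as the one above, so the mCherry values enter both. The difference was below 0 for 40 of 40 constitutive genes and for 63.9% of all tested clusters, whose median was -0.16, and for 73.9% of the 9172 clusters of highest mean level. An unadjusted p under 0.05 was reached by 3 of 42 genes, Psmg2, Psmd11 and Psmd8, all lower, where 6.92% of all tested clusters reached it in that direction and 2.87% in the other. The arrays did not overlap for 1 gene, Psmg2, where 6.85% of all tested clusters were lower and 4.55% higher without overlap. The 3 myr-SetB arrays were far apart: the constitutive median was 7.97, 8.89 and 9.54 on replicates 1 to 3, against 9.57, 9.16 and 9.74 on the mCherry arrays. Replicate 1 was the lowest of all 9 arrays for 38 of the 40 genes, where it was the lowest for 36.9% of all tested clusters and for 52.1% of the 9172 clusters of highest mean level. After quantile normalization it was the lowest for 33 of the 40 and for 28.9% of all tested clusters. Replicate 3 lay inside the mCherry range by its median.

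Psmg2 had the smallest unadjusted p. It read 7.37, 7.63 and 8.03 on the myr-SetB arrays, all under the lowest mCherry array, with a difference of -0.72 ± 0.23 (unadjusted p = 0.0115, adjusted p = 0.447, limma). Psmd11, a lid subunit, read 8.55, 7.46 and 7.94 with mCherry and 6.72, 7.29 and 7.63 with myr-SetB. The groups overlapped through replicate 3, and the difference was -0.77 ± 0.31 (unadjusted p = 0.0357, adjusted p = 0.447, limma). Psmd8, a further lid subunit, read 7.99, 7.84 and 8.65 with mCherry and 6.14, 7.37 and 8.0 with myr-SetB. Replicate 1 was far below the other 8 arrays and replicate 3 lay among the controls, and the difference of -0.99 ± 0.43 was the lowest of any member (unadjusted p = 0.0457, adjusted p = 0.447, limma). Psma5 read 9.42, 10.26 and 10.74 and overlapped the mCherry arrays, with a difference of -0.75 ± 0.33 (unadjusted p = 0.0519).

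By role, the median difference with myr-SetB was -0.70 over the 6 alpha genes, -0.60 over the 7 beta genes, -0.60 over the 6 ATPases and -0.71 over the 11 non-ATPase subunits. Every one of these genes was below 0 as deposited, Psmb3 turned above 0 under both rescalings (0.18 and 0.21), and the regulatory particle's 17 of 17 stayed below 0 after quantile and cyclic loess normalization. Psmd14 read 8.17, 9.18 and 9.53 and overlapped the controls, with -0.85 ± 0.38. Psma7 had -0.67 ± 0.42, Psmb4 -0.47 ± 0.28, Psmc4 -0.59 ± 0.43 and Psmd12 -0.61 ± 0.36. The assembly factor Psmg1 had -0.60 ± 0.39, the activator subunit Psme2 -0.35 ± 0.23, Psmf1 -0.38 ± 0.34, and the chaperones Psmd5 and Psmd9 -0.25 ± 0.20 and -0.07 ± 0.26. Cyclic loess put Psme2 at 0.12 and Psme1, Psmg4 and Psmd9 marginally above 0, and both scalings put Psmb11, at -0.08 ± 0.18 as deposited, slightly above 0 (0.002 and 0.0088).

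The size of the myr-SetB difference depended on which array was included. Without myr-SetB replicate 1 the constitutive median was -0.17, with 37 of 40 genes below 0, against an all-cluster median of -0.08 and 61.8% of clusters below 0. Without replicate 3 it was -1.02, and 33 members had an unadjusted p under 0.05 where 33.5% of all tested clusters did in either direction. The count of 3 was 1 without mCherry replicate 1 or 3, 6 without mCherry replicate 2, 2 without wt-SetB replicate 1 or 3, 1 without wt-SetB replicate 2, and 1 without myr-SetB replicate 1 or 2. The share of all tested clusters at that level, 9.79% with all arrays, was 4.04%, 14.9% and 5.42% without mCherry replicates 1 to 3. It was 7.53%, 6.86% and 7.45% without wt-SetB replicates 1 to 3. Without myr-SetB replicate 1 or 2 it was 3.5% and 5.63%. Without myr-SetB replicate 1, Psmg2 was at -0.57, Psmd11 at -0.52, Psmd8 at -0.48 and Psmb6 at -0.07. After quantile normalization of all 9 arrays the constitutive median was -0.33, with 38 of 40 below 0. Of all tested clusters 53% were below 0, and of the 9172 clusters of highest mean level 60.1%. Cyclic loess gave -0.19, with 34 of 40 below 0, where 51.4% of all tested clusters and 53.8% of those 9172 were. Under each scaling 1 gene was lower without overlap, where 6.27% and 6.18% of clusters were.

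**Figure D3:**
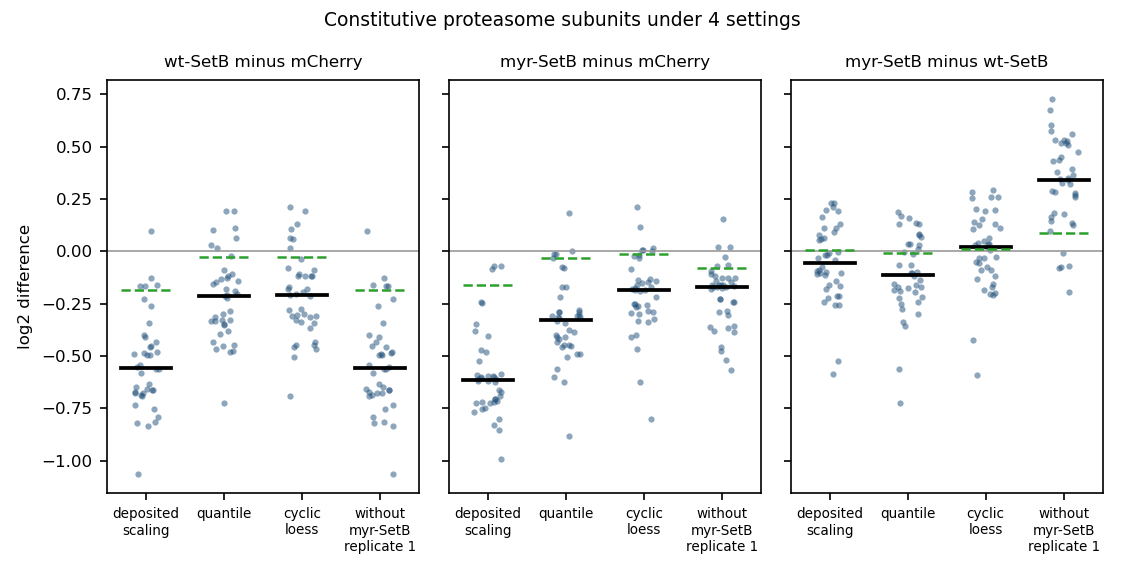
Log2 differences (y axis) of the 40 constitutive genes (points) in the 3 comparisons, as deposited, after quantile and cyclic loess normalization, and without myr-SetB replicate 1; the black line is their median and the green dashed line the median over all tested clusters. The black line stays below the green one in both comparisons with mCherry, at -0.21 (both scalings) for wt-SetB and from -0.33 to -0.17 for myr-SetB under the changed settings, and it turns to 0.34 for myr-SetB minus wt-SetB without that array.

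Between the Set-β constructs no proteasome gene differed beyond the spread between arrays by limma. The constitutive median for myr-SetB minus wt-SetB was -0.06, beside 0.01 over all clusters, and 26 of 40 genes were below 0, where 48.5% of clusters were. By limma no member had an adjusted p under 0.05 and 0 had an unadjusted p under 0.05, where 0.567% of clusters were lower and 0.567% higher at that level. In 0 members were the arrays apart, where 1.76% of clusters were lower and 2.63% higher without overlap. Standard errors of 0.15 to 0.49 show how wide a difference these arrays leave unresolved. The 4 members of smallest unadjusted p were Psmb9 (0.32 ± 0.21), Psmd8 (-0.58 ± 0.43), Psmb7 (-0.52 ± 0.45) and Psmg4 (-0.24 ± 0.21), each with an adjusted p of 1.0 by limma. The constitutive median was -0.11 with 27 of 40 below 0 after quantile normalization, and 0.02 with 18 of 40 below 0 under cyclic loess. Without myr-SetB replicate 1 the constitutive median was 0.34, with 5 of 40 below 0 against 37% of clusters, and 2 members had an unadjusted p under 0.05, both higher. Without myr-SetB replicate 3 it was -0.36, with 3 members at that level, all lower. Over all tested clusters 4.54% reached that level without replicate 1 and 3.22% without replicate 3, in either direction.

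The median difference over the 3 immunoproteasome genes was -0.09 for wt-SetB and -0.10 for myr-SetB, beside constitutive medians of -0.56 and -0.61. With wt-SetB it was -0.11 after quantile normalization and -0.13 under cyclic loess, beside a constitutive -0.21 in each. With myr-SetB it was -0.06 and -0.09, beside a constitutive -0.33 and -0.19. Psmb8 and Psmb9 had low mean levels, 5.75 and 6.77. As deposited, the median difference over all clusters without a level filter was -0.06 with wt-SetB and -0.03 with myr-SetB. Over the 9172 clusters of highest mean level it was -0.36 with each. The part of signal level in this contrast was not tested. Whether the groups of genes differ was not tested, and Psmb9 and Psmb10 did not lie alike. Psmb10, the inducible counterpart of Psmb7, read 7.99, 7.95 and 8.06 with mCherry, 7.86, 7.97 and 7.88 with wt-SetB and 7.78, 7.88 and 8.04 with myr-SetB. All 9 arrays lay within a narrow band, each group overlapped the others, and the differences from mCherry were -0.09 ± 0.15 and -0.10 ± 0.15 (adjusted p = 0.715 and 0.708, limma). The sign of Psmb10 depended on the scaling: quantile normalization gave 0.14 and 0.13, and cyclic loess gave 0.15 and 0.15. Psmb9, the counterpart of Psmb6, read 7.17, 6.90 and 6.70 with mCherry, 6.18, 6.75 and 6.65 with wt-SetB and 6.64, 6.93 and 6.97 with myr-SetB. The wt-SetB arrays lay mostly under the controls with an overlap through replicate 2. Of the myr-SetB arrays, replicate 1 lay just under the controls and the others among them. Its differences were -0.40 ± 0.21 (adjusted p = 0.447, limma) and -0.08 ± 0.21 (adjusted p = 0.855, limma). With wt-SetB Psmb9 was at -0.38 after quantile normalization and -0.39 under cyclic loess, further from the controls than the constitutive median. Psmb8, the counterpart of Psmb5, read between 5.31 and 6.12 on all arrays, below the level filter, and lay under the odorant receptor median on 3 of 9 arrays. Its group means of 5.81 ± 0.44 (SD, n = 3), 5.74 ± 0.05 and 5.68 ± 0.06 are therefore near the low-signal mark and were not tested.

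The constitutive counterparts were read on the same arrays. With myr-SetB, Psmb5 read 8.39, 8.69 and 9.56, Psmb6 read 8.86, 9.61 and 10.58, and Psmb7 read 9.03, 10.14 and 10.61. In all 3 genes replicate 1 was the lowest of the 9 arrays, as it was for Psmb10. Replicate 3 lay within the mCherry range for Psmb5 and Psmb7 and above it for Psmb6. The differences from mCherry were -0.60 ± 0.29 for Psmb5, -0.48 ± 0.39 for Psmb6 and -0.75 ± 0.45 for Psmb7, and without replicate 1 they were -0.36, -0.07 and -0.30. Levels and ranges of different clusters are not comparable in size, since each cluster has its own probes.

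**Figure D4:**
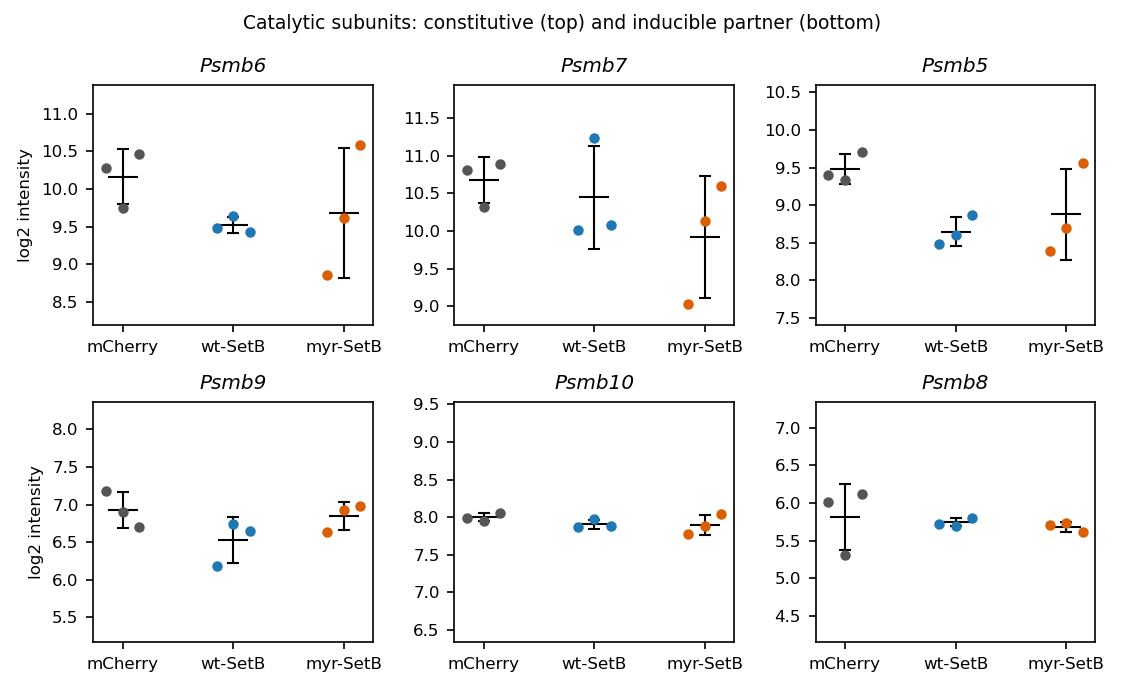
Log2 intensity (y axes, each spanning the same width) of the constitutive catalytic genes Psmb6, Psmb7 and Psmb5 (top) and of their inducible counterparts Psmb9, Psmb10 and Psmb8 (bottom) on the 3 arrays of each group in replicate order, with the group mean and SD. The upper genes and Psmb10 have myr-SetB replicate 1 as their lowest array, and Psmb10 stayed between 7.78 and 8.06.

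Genes that work with the proteasome had values on the same side. Of 24 proteasome partners, 20 were measured and tested, and all 20 were lower with wt-SetB as deposited (median -0.43, 1 at an unadjusted p under 0.05), but 17 after quantile normalization and 16 after cyclic loess. With myr-SetB all 20 were lower as deposited (median -0.56, 2 at that level), 16 after quantile normalization and 15 after cyclic loess. The shares over all tested clusters were 65.5% and 63.9% below 0, with 7.13% and 6.92% lower at that unadjusted p, so the counts of 1 and 2 are near the background. Usp14, the deubiquitinase docked on the regulatory particle, had differences of -0.79 ± 0.31 and -0.77 ± 0.31. Ufd1, a cofactor of the unfoldase Vcp, had -0.97 ± 0.47 with wt-SetB, and Ubqln2, a shuttle that carries ubiquitinated proteins to the proteasome, had -0.60 ± 0.24 with myr-SetB. Of 29 ubiquitin conjugation genes, 21 were tested, and all 21 were lower in each comparison as deposited and after quantile normalization and 20 after cyclic loess, with deposited medians of -0.65 and -0.63 and 2 at an unadjusted p under 0.05 in each, which is also near those shares. Stub1, a ubiquitin ligase that works with heat-shock chaperones, had -0.97 ± 0.30 with wt-SetB, and Rbx1, the RING subunit of cullin ligases, had -0.91 ± 0.32 and -0.80 ± 0.32. Ube2g1, a ubiquitin-conjugating enzyme, had -0.90 ± 0.30 with myr-SetB. None passed the adjusted test.

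Many antigen processing and interferon response genes are normally induced together with the immunoproteasome. Of 13 antigen processing genes, 10 were measured and 6 tested, of which 5 were below 0 with each construct (medians -0.48 and -0.63, 0 at an unadjusted p under 0.05 by limma in either). Over all tested clusters 65.5% and 63.9% were below 0. The 5 genes below 0 with each construct were B2m, Erap1, Calr, Pdia3 and Canx, and Tapbp was above 0 (0.06 and 0.16). Tap1 (0.04 and 0.21), Tap2 (0.32 and 0.26), Nlrc5 (0.20 and 0.30) and Irf1 (0.30 and 0.12) were below the level filter. Their differences were also above 0 and were not tested. Over all 10 measured genes the medians were -0.18 and -0.22. Erap1, the peptidase that trims peptides in the endoplasmic reticulum, had -0.63 ± 0.42 and -0.86 ± 0.42. Calr had -0.93 ± 0.69 with wt-SetB, and Canx had -0.56 ± 0.37 with myr-SetB. Of 15 interferon response genes, 14 were measured and 6 tested, with 3 below 0 and 3 above in each comparison as deposited (medians -0.06 and 0.05), and 2 below 0 with wt-SetB after either rescaling. Over all 14 measured genes the medians were 0.03 and 0.08. Oas1a, an interferon-induced sensor of double-stranded RNA, had 0.78 ± 0.36 and 0.55 ± 0.36, and Irf9, a subunit of the interferon-activated transcription factor, had -0.35 ± 0.25 with wt-SetB. Usp18 had 0.24 ± 0.17 with myr-SetB.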

How the data were processed

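The authors deposited linear intensities from Rat Gene 2.0 ST arrays, computed by RMA in Affymetrix Expression Console and scaled to each array's median, per the labels and the submitters' processing notes; versions and genome build are not stated there. RMA works on the log scale, so log2 of the deposited intensity was taken. Clusters were named by the platform annotation: 18511 had 1 symbol, 575 several and 17599 none, and 18394 matched the RefSeq GRCr8 table by gene ID. Clusters with a mean of at least 6.65, the median of all cluster means, were tested (18343) with limma 3.58.1 in R 4.3.3: lmFit and eBayes on group means over 9 arrays, two-sided, Benjamini-Hochberg over all tested clusters, threshold 0.05, with 6 residual and 2.82 prior degrees of freedom. With 3 arrays per group precision is limited. The procedure was tested on simulated data. Groups follow the labels. Named with differences were the 6 catalytic subunits, the 4 members of smallest p per comparison, the member of highest mean per role and, per other list, the 2 genes of smallest p per comparison; any member could be named besides. Members and lists were chosen with earlier results of these data known. Alternatives were quantile and cyclic loess normalization, other filters, log2(intensity + 16), fits of only the groups compared, a replicate block, the mean over a gene's clusters, and leaving out each array.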

Additional observations from a re-analysis of the deposited data

How the results depend on the processing

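No cluster passed an adjusted p of 0.05 by limma under any alternative run, so calls could not be lost; the counts below are at an unadjusted p under 0.05. For wt-SetB against mCherry the count of 4 proteasome genes was 2 after quantile normalization and 23 with only the groups compared in the fit, where 23.2% of all tested clusters reached that level, and the constitutive median of -0.56 was -0.21 after quantile and -0.21 after cyclic loess normalization. After quantile normalization 7.46% of all tested clusters reached that level for wt-SetB against mCherry. For myr-SetB against mCherry the count of 3 was 1 with only the groups compared in the fit, where 4.86% of clusters did. Samples with the same number correlated over 0.1 in only some pairs (lowest -0.069, highest 0.383). The highest were replicates 1 and 3 of wt-SetB and mCherry (0.383 and 0.273), but since not every pair exceeded 0.1 the numbers were not treated as pairing the samples. This rule does not show that the numbers are unrelated to the arrays, since marker sums set replicate 1 of each group apart. The SEs and p-values given for single genes come from fits without a replicate block. With the replicate number as a block the counts were 6 for wt-SetB, 5 for myr-SetB and 0 between the Set-β groups. Over all tested clusters 10.6%, 9.56% and 1.37% reached the same unadjusted level with that block.

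Leaving out 1 array at a time gave counts of 0 to 18 for wt-SetB, 1 to 33 for myr-SetB and 0 to 3 between them. The shares of all tested clusters at the same unadjusted level ran from 4.8% to 21.1%, from 3.5% to 33.5% and from 0.992% to 4.54%. Constitutive medians ran from -0.70 to -0.44, from -1.02 to -0.17 and from -0.36 to 0.34, and immunoproteasome medians from -0.32 to -0.06, from -0.14 to -0.03 and from -0.03 to 0.05. Single genes that crossed 0 ranged from -0.32 to 0.081 (Psmb8) and -0.023 to 0.26 (Psmb11) with wt-SetB, from -0.19 to 0.048 (Psmb9), -0.20 to 0.076 (Psmb11), -0.38 to 0.019 (Psmb8) and -0.62 to 0.023 (Psmf1) with myr-SetB, and from -0.076 to 0.054 (Psmb10), -0.11 to 0.48 (Psmb5) and -0.29 to 0.57 (Psmb6) between the Set-β groups.

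Of 581 values under the alternatives that keep all arrays or only the groups compared, 560 were counted as unchanged. For a single gene this meant the same sign and no adjusted p under 0.05 by limma. For a count it meant a similar size, and for a median a move smaller than the SD of array medians within groups. A median could thus change sign: between the Set-β groups the constitutive median was -0.06 as deposited and 0.02 under cyclic loess. A level filter, a replicate block and a fit of only the groups compared leave a gene's difference as it was. Its sign was fixed in advance under these settings, so the total of 560 does not measure robustness. Of 73 values under each rescaling, 7 reversed after quantile normalization and 8 under cyclic loess. With wt-SetB the sign turned for Psmb7 (0.11 quantile, 0.13 loess), Psmb10 (0.14, 0.15), Psmd5 (0.066, 0.059), Psmg1 (0.016, 0.016) and Psmb4 (0.033, 0.066). With myr-SetB it turned for Psmb10 (0.13, 0.15), Psmb11 (0.0020, 0.0088) and Psme2 (0.12, loess). The cause was not tested. Signal near the level of odorant receptor genes limits Psmb8.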
